A study of Mus musculus with 76 samples.

Results

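Cytosolic ribosomal protein genes encode the proteins that, with the ribosomal RNAs, make up the small (Rps names) and large (Rpl names) subunits of the ribosome that translates nuclear mRNAs. They were chosen by their row names, taking Rps and Rpl symbols with a number together with Rplp0, Rplp1, Rplp2 and Rpsa, and leaving out named pseudogenes and the S6 kinases. The rule found 89 of 35825 rows. It used no measured value. Of these rows 83 passed the filter on low counts and 6 did not. The rule goes by name, and the GENCODE M21 annotation types 5 of the 89 rows as processed pseudogenes (Rps12l1, Rps3a2, Rps3a3, Rpl6l and Rpl32l). It types Rps4l as a transcribed processed pseudogene. Rps12l1, Rps3a2 and Rps4l passed the filter and are counted below as small subunit members.

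The study drew the contents of single neurons of the dorsal CA1 pyramidal layer of the mouse hippocampus into a patch pipette and sequenced them (Patch-seq). The mice were at postnatal day 4 and carried either wild-type gephyrin (GPHN WT) or gephyrin with the S268/270A change (Mut). Gephyrin is the scaffold protein of inhibitory synapses. All groups shared the Nkx2.1 Cre driver and the Ai14 reporter, so that tdTomato marked interneurons descended from the medial ganglionic eminence (MGE), and none was treated. The layer sampled is meant to enrich for future parvalbumin basket cells, without selecting them. The labels give 76 cells, of which 67 stand in the authors' filtered tables. Without a mark there are 9 WT and 19 Mut cells from females and 19 WT and 15 Mut cells from males, and 1 WT female and 4 WT male cells are marked in the labels for contaminants. The labels name no animals, so each group entered the comparisons as 1 sum over its cells.

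Ribosomal protein mRNAs are among the most abundant mRNAs of most cells. Many begin with a 5′ terminal oligopyrimidine tract, a C followed by an unbroken run of C and T, through which mTOR and Larp1 control their translation. Their products are needed in matched amounts, and in neurons they are made in the cell body and also from mRNAs carried into dendrites and axons.

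Promoters from RefSeq (GRCm38.p6), each reaching from 250 bases before to 50 bases after an annotated start, were at hand for 64 members, as 76 promoters. A C-led pyrimidine run of 8 or more bases lay within 15 bases of the start in 36.8% of these promoters, against 9.26% of all 32851 promoters read the same way. A run of a C and at least 4 further pyrimidines opened exactly at the start in 18.4% of the member promoters and in 2.51% of all. Windows of 30 bases are shown for members that the results below turn on, from 15 bases before the start, with the longest C-led pyrimidine run in capitals. The first 6 have a run of 8 or more, and the last 3 have shorter ones. Rpl35a has 3 annotated promoters, and the other 2, not shown, have runs of 3 bases.
Rpl27a, chr7:109519180-109519209, plus strand: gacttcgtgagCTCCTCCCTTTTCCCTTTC
Rpl7a, chr2:26910792-26910821, plus strand: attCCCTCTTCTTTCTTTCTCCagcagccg
Rpl13a, chr7:45128731-45128760, minus strand: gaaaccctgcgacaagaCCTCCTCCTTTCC
Rpl35a, chr16:33056467-33056496, plus strand: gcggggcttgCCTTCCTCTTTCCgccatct
Rps10, chr17:27635230-27635259, minus strand: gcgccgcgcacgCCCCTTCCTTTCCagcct
Rps6, chr4:86857353-86857382, minus strand: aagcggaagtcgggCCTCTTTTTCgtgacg
Rpl13, chr8:123102335-123102364, plus strand: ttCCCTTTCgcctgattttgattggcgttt
Rpl12, chr2:32961697-32961726, plus strand: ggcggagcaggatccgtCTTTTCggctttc
Rpl41, chr10:128549154-128549183, minus strand: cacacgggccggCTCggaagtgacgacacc

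Over the whole 300-base promoter, on either strand, the letters CCGGAAG, the core of ETS factor sites, stood in 35.5% of member promoters and in 8.86% of all. The letters AAGATGGC, the core of YY1 sites, stood in 10.5% of member promoters and in 2.75% of all. The letters TATAAA stood in 10.5% and 13.6%. The 26 tested members with a run of 8 or more and the 34 with a promoter but no such run had median levels of 667 and 673 TPM (a level scaled for transcript length and depth). A match is a description of the letters only.

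The cells were checked against markers of their labelled type. Of the 62 unmarked cells, Lhx6 was at 10 CPM (counts scaled to the cell's total) or more in 57 and Gad1 in 58, while Sst, which only part of the lineage carries, reached it in 21. The summed level of 13 microglial markers had a median of 11.7 to 53.2 CPM in the 4 unmarked groups, with Tmem119 at 10 CPM in 0 cells. Unmarked Mut female cell 20 stood at 8918 CPM. Total counts ran from 2946460 to 12070800 per unmarked cell (median 6353180), and the highest Pearson r between any 2 kept cells was 0.84, so that no pair looked like 1 library deposited again.

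A cell's ribosomal protein genes together held a median of 2.41% of its counts (range 1.36 to 6.62% over 62 unmarked cells), or 6.61% of its TPM. WT female cells ran from 1.65 to 3.51% with a median of 2.59%. WT male cells ran from 1.36 to 4.09% with a median of 2.39%. Mut female cells ran from 1.73 to 6.62% with a median of 2.48%, and Mut male cells from 1.46 to 4.51% with a median of 2.23%. The groups overlapped over most of their range, and their medians differed by less than the spread over cells within any group (SD 0.58 to 1.41).

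**Figure D1:**
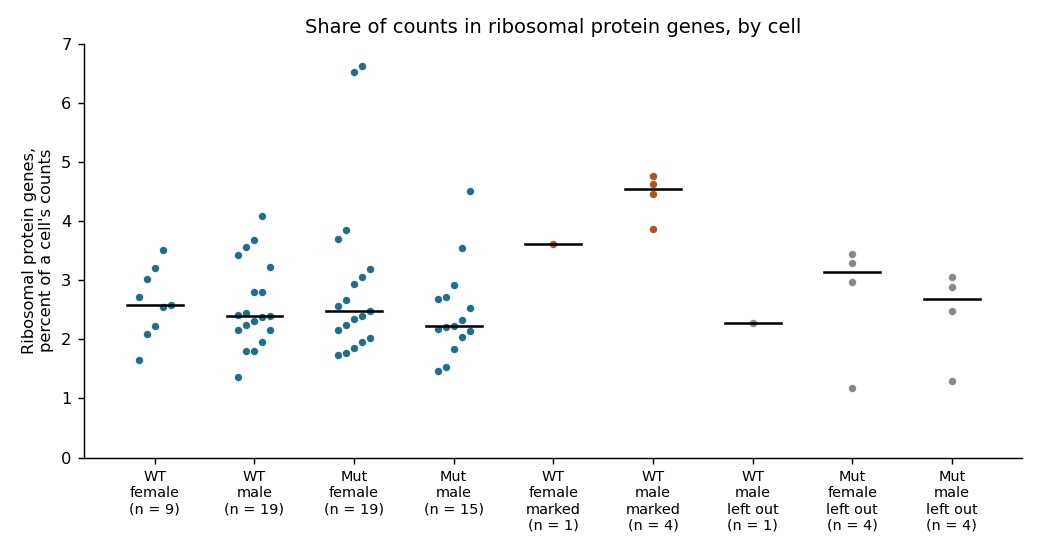
Share of each cell's counts in ribosomal protein genes (percent, y axis) by group (x axis); points are cells, black lines are medians, orange marks cells labelled with contaminants and grey marks cells outside the filtered tables. Mut female cells 2 and 6 sit at 6.52 and 6.62%, and the 4 marked WT male cells between 3.86 and 4.76%.

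Mut female cells 2 and 6 stood apart from the other 17 Mut female cells, at 6.52 and 6.62%. Of the 83 tested members, 75 in cell 2 were above the median of the other 18 Mut female cells. In cell 2, 25 were above the highest of those cells and 1 was below the lowest. In cell 6 the counts were 65 above the median, 29 above the highest and 6 below the lowest. Mut male cell 8, at 4.51%, had 31 members above the highest of the other 14 Mut male cells. The same counts were not made over all genes, so they do not show whether ribosomal protein genes stood out from other genes in these cells. The high level of these cells was not shared by every member. Rpl22l1 (chosen here after its values were seen), a vertebrate paralogue of Rpl22, was at 1.47 CPM in cell 2 and 5.64 CPM in cell 6, against a median of 109 CPM in the group. Cell 2 carried MGE markers at 223 CPM, the lowest of the group, and astrocyte and radial glia markers at 5913 CPM. In cell 6 these sums were 1138 and 2709 CPM, with oligodendrocyte lineage markers at 1033 CPM. Mut female cells 18 and 1 had more astrocyte and radial glia markers than cell 6, at 8220 and 2894 CPM, with shares of 3.06 and 3.85%. Mut female cell 21 had 1916 CPM of oligodendrocyte lineage markers and a share of 1.85%. The part of such markers in the high share was not tested.

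Most members were present in most cells. The median unmarked cell carried 78 of the 89 at 10 CPM or more (range 52 to 82), and 74 members reached that level in at least 50 of the 62 cells. Rpl13, Rpl15, Rpl21, Rpl32, Rpl41, Rps19, Rps25 and Rps28 were among the 9 that reached it in all 62. The lowest numbers of members were found in Mut male cell 5 (52), WT female cell 7 (55) and WT male cell 16 (57). Across the 62 cells the number of members carried had a rank correlation of 0.77 with the number of all genes at 10 CPM and of 0.36 with total counts, which all come from the same libraries.

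Levels between members differed widely, as TPM over the 62 unmarked cells. Rpl41, the smallest protein of the large subunit, had the highest median at 2637 TPM (range 483 to 6934). Also among the 8 highest were Rps29 at 2184 TPM, Rpl13 at 1882 TPM, Rpl36 at 1611 TPM, Rps27 at 1584 TPM, Rpl32 at 1427 TPM and Rps14 at 1360 TPM. Neighbours in this order lay well within each other's range over cells, and the 8 together held 23.9% of the summed medians. In all, 18 members had a median of 1000 TPM or more and 78 a median of 100 TPM or more. The median was 735 TPM over the 35 tested small subunit members and 653 TPM over the 48 large subunit members.

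**Figure D2:**
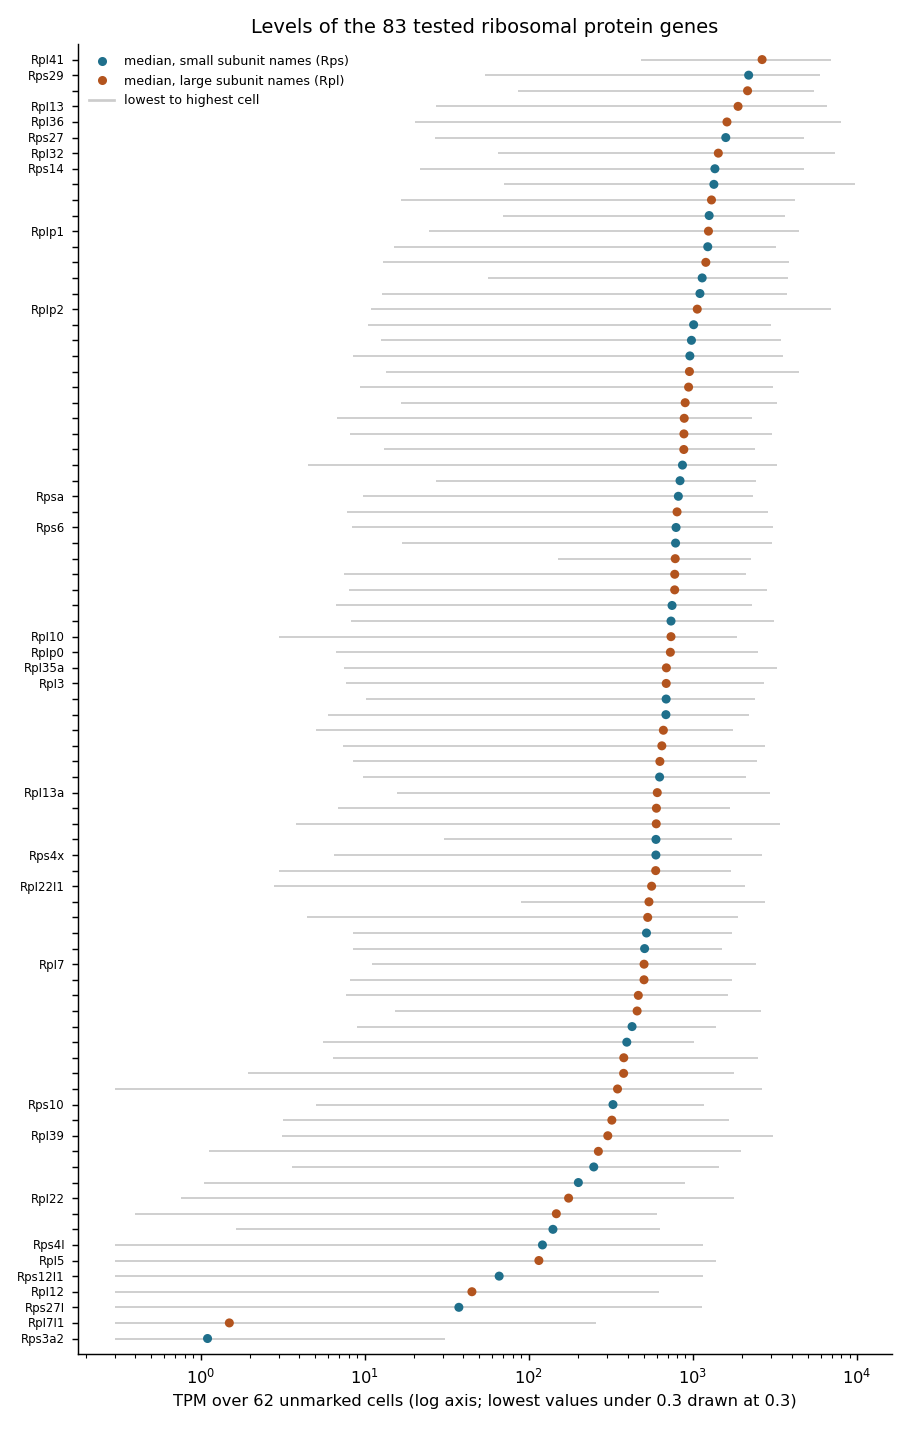
TPM (log axis) of the 83 tested members over the 62 unmarked cells; dots are medians, coloured by subunit name, with some members labelled, and grey lines run from the lowest to the highest cell. Most medians lie above 100 TPM, and Rps3a2, Rpl7l1, Rps27l, Rpl12 and Rps12l1 lie below.

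The order of the members was similar in every group. Across the 83 members, the rank correlation of median TPM was between 0.87 and 0.93 for each pair of the 4 unmarked groups. Genes are not independent replicates, and each group's values come from the same annotation. The summed TPM of small subunit members was 0.69 times that of large subunit members in the median WT female, WT male and Mut female cell and 0.79 times in the median Mut male cell, with cells from 0.49 to 1.09.

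Some levels rest on how reads were divided among near-identical sequences. The pseudogenes of ribosomal protein mRNAs are numerous, and a median of 49.0% of a member's 31-letter words also occurs in a transcript of another gene (GENCODE M21). Rps12l1, itself a processed pseudogene in that annotation, shares 100% of its words with Rps12. Rpl12, a protein of the stalk base, had a mean of 53.3 CPM, while Gm10275, which shares at least 30% of Rpl12's words, had 195 CPM. Rpl5, which with Rpl11 carries the 5S ribosomal RNA into the subunit, had a mean of 189 CPM beside 260 CPM for Gm15500. The levels of Rps12, Rps12l1, Rpl12 and Rpl5 are uncertain for this reason. Of the 64 members with such a partner row, these 4 and 4 rows near 0 (Rps3a2, Rps3a3, Rpl6l and Rpl32l) held less than 50% of the reads of the member and its partners together.

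The paralogues differed widely in level. Rpl10l, known from male germ cells, and Rpl39l had no count in any unmarked cell, where 3 counts over all 62 cells would come to 0.00728 CPM. Rpl3l, the paralogue of striated muscle, had 1 count in total, in the WT male sum. Rpl22l1 had the higher TPM of its pair, with a median of 560 TPM against 175 TPM for Rpl22, and lay above Rpl22 in 48 of 62 cells. The levels of both varied from cell to cell with a rank correlation of 0.01. Rps27l, a paralogue known as a target of p53, had a median of 37.5 TPM beside 1584 TPM for Rps27 and lay above it in 0 of 62 cells. Rps4l had a median of 121 TPM beside 595 TPM for the X-linked Rps4x and lay above it in 12 cells, and Rpl7l1 had 1.498 TPM beside 504 TPM for Rpl7. Rps4l, typed as a transcribed processed pseudogene in GENCODE M21, reached 10 CPM in 37 cells, and Rpl7l1 in 26.

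The stalk proteins Rplp0, Rplp1 and Rplp2, which recruit elongation factors to the large subunit, had medians of 728, 1243 and 1062 TPM. Rpsa, a small subunit protein also known as the laminin receptor, had a median of 815 TPM. Rps6, the substrate of the S6 kinases, had a median of 789 TPM and reached 10 CPM in 57 of 62 cells.

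Cell-to-cell spread also differed among members. The coefficient of variation of CPM over the 62 cells was among the lowest for Rpl41 (0.541), Rps3 (0.586), Rpsa (0.590) and Rps19 (0.597). Among members with a median of at least 10 CPM it was highest for Rps12l1 (1.45), Rpl12 (1.32), Rpl39 (1.27), Rps4l (1.25) and Rpl5 (1.21). Rps12l1, Rpl12 and Rpl5 are members whose reads are shared with other rows.

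Members tended to be high in the same cells. Over the 62 cells the median pairwise rank correlation among the 83 members was 0.18, and 87.8% of pairs were above 0. The same median was 0.06 among 78 mitochondrial ribosomal proteins and 0.17 among 26 ribosomal protein pseudogene rows. It was 0.12 among 14 elongation factors and related mRNAs of the oligopyrimidine type, and 0.11 among 12 genes of the signalling to ribosomal protein translation. Pairs above 0 made up 87.7% among pseudogene rows, 86.4% among signalling genes, 78.0% among elongation factors and 67.8% among mitochondrial ribosomal proteins. For assembly factors, RNA polymerase I genes and ribosomal genes outside the name rule it was 60.0 to 72.2%. A high percentage of such pairs was thus not particular to the members, and none was computed over all genes. CPM values of 1 cell share a total, so these are descriptions. Against the sum of the other members, Rps29 (0.78), Rpl41 (0.76) and Rpl39 (0.67) had the highest rank correlations, and the median was 0.39. Rpl7l1 (−0.25), Rpl5 (−0.13) and Rps4l (−0.07) were the 3 members below 0, and the level of Rpl5 is uncertain for its shared reads. A cell's summed share had rank correlations of 0.52 with the elongation factor list, −0.18 with total counts and −0.28 with the MGE markers. With microglial markers the value was 0.32, and some other cell types were similar. It was 0.32 with red cell, 0.29 with astrocyte and radial glia, and 0.28 with endothelial and mural markers. With pyramidal neuron and oligodendrocyte lineage markers it was 0.16 and 0.13.

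No ribosomal protein gene passed the test between Mut and WT over both sexes. The fit on the 4 sums, with 1 residual degree of freedom, called 0 of 83 members and 0.0% of 16435 genes tested (edgeR quasi-likelihood test, Benjamini-Hochberg adjusted p under 0.05; every adjusted p of a member was 1). DESeq2 called 0 members and 666 genes on the same sums. At an unadjusted p under 0.05, 0 members were higher or lower in edgeR, beside 1.66% of all genes higher and 1.84% lower; the lowest p of a member was 0.221. The median member change was −0.07 (log2, Mut over WT), and 0.00 over all genes. The median was −0.07 over small subunit members and −0.09 over large subunit members. With 2 sums a genotype, these values do not show that the genotypes are alike.

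Within the sexes, 17 members were higher in the Mut sum than in the WT sum in both females and males (25.1% of all genes), 27 were lower in both (25% of all genes) and 39 went opposite ways (49.8%). The median log2 ratio was −0.06 in females and −0.02 in males. In females, 0 members were 2-fold or more higher (23.1% of all genes) and 1, Rpl7l1, was 2-fold or more lower (18.2%). In males 1 member, again Rpl7l1, was 2-fold or more higher (16.7%) and 0 were lower (17.4%). The interquartile range of the member ratios was −0.33 to 0.11 in females and −0.21 to 0.22 in males, against −0.67 to 0.89 and −0.64 to 0.63 over all genes. The members and all genes were not matched for level. Of the members, 78 had a median of 100 TPM or more, while all genes include every row that passed the filter on low counts. The narrower range and the few members past 2-fold are therefore not shown to be particular to ribosomal protein genes. In females 34 of 83 members were higher in Mut (51.1% of all genes), and in males 39 were (48.8%). The female count was 54 with library totals as the scale, 22 without Mut female cell 2 and 13 without Mut female cells 2 and 6.

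**Figure D3:**
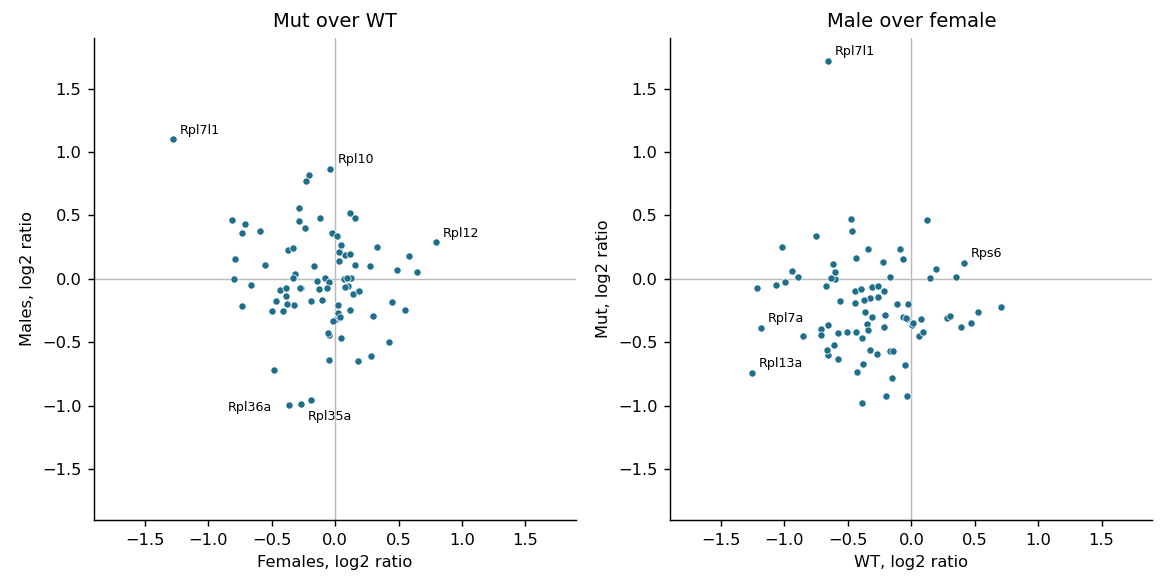
Log2 ratios of TMM-scaled CPM for the 83 tested members; left, Mut over WT in females (x) and males (y); right, male over female in WT (x) and Mut (y). On the left the points lie around 0 with Rpl7l1 at −1.28 and 1.10; on the right most lie below 0 on both axes, a placement that moves with the scaling and with 2 cells.

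The member of smallest genotype p was Rpl35a, a large subunit protein mutated in some Diamond-Blackfan anaemia (gene at chr16:33056453-33060189, plus strand, GRCm38). Its CPM over cells, as lowest, median and highest, was 8.02, 173 and 334 in WT females and 4.11, 192 and 468 in Mut females. In WT males it was 4.99, 156 and 874 and in Mut males 1.44, 88.7 and 324. Every group reached into the range of every other. The sums held 225, 186, 195 and 98.1 CPM in the order WT and Mut females, then WT and Mut males, a log2 change of −0.63 (SE 0.45, edgeR p = 0.221, adjusted p = 1). The change was −0.17 without the Mut male sum and −1.08 without the Mut female sum. Rps10, a small subunit protein near the mRNA entrance, held 184, 132, 147 and 89.0 CPM in the same order, a change of −0.60. Rpl36a, an X-linked gene, held 135, 105, 121 and 60.3 CPM (−0.69).

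Further members lower in the Mut sums of both sexes were Rpl13a (−0.48), Rpl4 (−0.33), Rpl27a (−0.58), Rps15 (−0.37) and Rpsa (−0.29), with edgeR p from 0.264 to 0.372 and adjusted p of 1. For Rpl27a the sums were 116 and 102 CPM in females and 153 and 78.2 CPM in males, WT first. Rpl27a held 65.0% of the reads of itself and Gm7536, a row that shares its words. On the other side, Rpl7 held 380 and 569 CPM in females and 339 and 384 CPM in males, a change of 0.38 (SE 0.34, p = 0.314, adjusted p = 1). Rps14, the small subunit gene tied to the 5q- syndrome, held 403 and 631 CPM in females and 490 and 509 CPM in males (0.35). Rps7 (0.32), Rps28 (0.32), Rpl23 (0.29), Rpl12 (0.55), Rpl27 (0.18) and Rpl3 (0.13) were also higher in both sexes, with edgeR p from 0.388 to 0.675. The level of Rpl12 is uncertain, since reads were divided between it and Gm10275. Without Mut female cells 2 and 6 the change of Rpl3 was −0.064.

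The stalk members showed no common direction by genotype: the log2 ratios in females and males were 0.03 and 0.21 for Rplp0, 0.07 and 0.00 for Rplp1, and −0.39 and −0.07 for Rplp2. For Rps6 they were 0.19 and −0.10. For Rpl22 they were −0.28 and 0.56.

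Other genes of the pathway were not called by genotype either. Of 14 elongation factors and related mRNAs, 6 were higher and 3 lower in both sexes, with a median change of 0.14 in the fit and of −0.10 in females and 0.19 in males. Eef1a1 held 2716 and 2639 CPM in females and 2315 and 2666 CPM in males. Of 28 ribosome assembly factors 14 were higher and 7 lower in both sexes (median 0.32), with Ncl, the nucleolar protein nucleolin, at log2 ratios of 0.16 and 0.49. Of 13 genes of the signalling that controls ribosomal protein translation, 1 was higher and 2 were lower in both, with medians of −0.68 in females and 0.23 in males (−0.15 in the fit). Of 10 RNA polymerase I genes 4 were higher and 3 lower in both (0.19 in females, 0.07 in males, −0.10 in the fit). Of 78 mitochondrial ribosomal proteins 25 were higher and 14 lower in both (−0.12 in females, 0.24 in males, 0.18 in the fit). Of the 5 ribosomal genes outside the name rule (Fau and Rack1 among them) 1 was higher and 2 were lower in both. Of 78 ribosomal protein pseudogene rows 9 were higher and 41 lower in both sexes, with medians of −0.10 in females and −0.08 in males by the ratios with a pseudocount and of −0.61 in the fit, and with 1 row at an unadjusted edgeR p under 0.05.

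No ribosomal protein gene was called by sex: the fit called 0 of 83 members and 0.0% of genes, and DESeq2 called 0 members and 711 genes. At an unadjusted p under 0.05 edgeR had 0 members higher in males (2.33% of all genes) and 1 lower (1.55%). The median member change was −0.28 (log2, male over female), beside 0.04 over all genes. In WT, 67 of 83 members had a lower male sum and in Mut 61 did. Of all 16435 genes tested, 7788 in WT and 8225 in Mut had a lower male sum, and 52.4% and 49.7% had a higher one. The WT count was 43 with library totals, a scale that moved the median of all genes in WT from 0.05 to 0.23, and the Mut count was 43 without Mut female cells 2 and 6. The direction therefore moves with the scale in WT and with 2 cells in Mut. Litter and animal cannot be told apart from sex, since the labels name none.

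The member below 0.05 was Rpl13a, a large subunit protein that also serves in interferon-gated translational silencing (gene at chr7:45125558-45128761, minus strand, GRCm38). Its CPM over cells, as lowest, median and highest, was 70.3, 341 and 962 in WT females and 2.46, 219 and 525 in WT males. It was 11.2, 286 and 1040 in Mut females and 12.6, 172 and 508 in Mut males. The ranges overlapped, with the highest cells in females. The sums held 478, 199, 287 and 171 CPM in that order, a change of −1.003 (SE 0.38, edgeR p = 0.049, adjusted p = 1). WT female cell 7 gave 28.3% of the WT female counts. Rpl13 followed with sums of 1160, 737, 1060 and 697 CPM (−0.63), then Rpl7a (−0.79) and Rpl29 (−0.61). Higher male sums in both genotypes were found for Rps6 (0.27), Rps4l (0.29) and Rpl8 (0.18), among others, with edgeR p of these 3 from 0.453 to 0.631 and adjusted p of 1.

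Rpl7l1, a large subunit paralogue with a role in ribosome assembly, was carried unevenly. In females it reached 10 CPM in 5 of 9 WT and 6 of 19 Mut cells, and in males in 7 of 19 WT and 8 of 15 Mut cells. The highest cell of each group held 27.5 to 49.3% of that group's counts. The sums were 84.1 and 34.1 CPM in WT and Mut females and 53.0 and 115 CPM in WT and Mut males. Whether the sexes differ in this was not tested.

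Cells marked for contaminants held more ribosomal protein counts. The 4 marked WT male cells had shares of 3.86, 4.63, 4.47 and 4.76%, where the 19 unmarked WT male cells ran from 1.36 to 4.09%. Of 83 members, 80 were higher in the marked sum (46.2% of all genes), 46 were 2-fold or more higher (21% of all genes) and 1 was 2-fold or more lower (24.6%). The median log2 ratio was 1.04, against −0.07 over all genes, and leaving out each cell in turn it stayed between 1.004 and 1.12. It was 0.72 with library totals and 0.53 with averaged TPM. The count past 2-fold upward was 24 with library totals, 23 by the means of single cells and 11 with averaged TPM. Each group is 1 sum, so no test was made.

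In these 4 cells the 13 microglial markers summed to 13305 to 15424 CPM, with 12 or 13 of the 13 at 10 CPM or more, against 6.83 to 1665 CPM in unmarked WT male cells. The MGE markers summed to 306 to 1542 CPM, inside the range of the unmarked cells (64.8 to 7237 CPM, median 2044 CPM). The marked cells had 5083 to 7495 genes at 10 CPM, and the unmarked cells 1769 to 7422 (median 4117), so that 3 of the 4 marked cells lay inside the unmarked range. The part of these differences in the ribosomal protein share was not tested. Microglial markers were also above 1000 CPM, a limit not set in advance, in 5 unmarked cells, each with a share above its group's median. Mut female cell 20, at 8918 CPM, had a share of 2.66% (group median 2.48%), and Mut male cell 18, at 2413 CPM, had 3.55% (2.23%). WT male cells 6 and 10, at 1665 and 1026 CPM, had 2.81 and 3.43% (2.39%). WT female cell 6, at 1183 CPM, had 3.51% (2.59%), the highest unmarked share of its group. In the other unmarked groups the highest share was in a cell with low microglial markers. These were Mut female cell 6 (6.62%, 11.3 CPM), Mut male cell 8 (4.51%, 20.4 CPM) and WT male cell 18 (4.09%, 15.6 CPM). Whether microglial content bears on the share was not tested. In Mut female cell 20, 30 of 83 members were above the median of the other cells of its group, a count not made over all genes. The marked WT female cell, with microglial markers at 4169 CPM, had 3.62%; without WT female cell 6, the highest unmarked WT female share was 3.21%.

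For 4 members every marked cell lay above every unmarked WT male cell, among them Rps18, Rps27 and Rps28, or 4.82% of the 83 beside 1.47% of all genes tested. Rps18, at the head of the small subunit, had 748, 705, 681 and 960 CPM in the marked cells, where the unmarked had 35.9, 204 and 571 CPM (lowest, median, highest), a log2 ratio of 1.83. The 4 marked cells had 503, 498, 482 and 586 CPM of Rps27, and the unmarked cells 4.46, 221 and 464 CPM. Of Rps28 they had 380, 466, 389 and 360 CPM, and the highest unmarked cell 352 CPM, so that its gap was small.

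The largest ratios belonged to Rps27l and Rpl10. Rps27l stood at 189, 87.0, 71.6 and 232 CPM in the marked cells and ran from 0 to 250 CPM, with a median of 4.99 CPM, in the unmarked cells (log2 ratio 2.36). Rpl10, among the last proteins to join the large subunit, had 647, 812, 630 and 1298 CPM, where the unmarked cells had 0.67, 157 and 750 CPM (2.13), and the groups overlapped. Rplp0 had 1373, 1939, 2305 and 1399 CPM in the marked cells and 5.70, 618 and 2651 CPM in the unmarked (1.76). Of Rps29 the marked cells had 588, 789, 779 and 1115 CPM and the unmarked 74.1, 345 and 652 CPM (1.62), so that 3 of the 4 lay above the highest unmarked cell.

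The 3 members lower in the marked sum were Rpl5 (−1.09), Rpl22l1 (−0.55) and Rps4l (−0.48). The level of Rpl5 is uncertain, since reads were divided between it and Gm15500. Rpl5 stood at 25.3, 187, 150 and 22.9 CPM in the marked cells and ran from 0.39 to 884 CPM, with a median of 180 CPM, in the unmarked cells. For Rpl22l1 the marked cells had 96.5, 113, 64.8 and 79.3 CPM and the unmarked 1.91, 156 and 430 CPM. All 3 overlapped the unmarked cells. Small and large subunit members had median ratios of 1.12 and 0.97, with 23 members of each 2-fold or more higher.

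Other genes of translation did not all take the same direction in the marked cells. The 5 ribosomal genes outside the name rule were all higher in the marked sum (median log2 ratio 1.10; Fau 1.83), as were 13 of 14 elongation factors and related mRNAs (median 0.51; Eef1a1 1.42, Npm1 1.12). Of 28 assembly factors 17 were higher (median 0.78), with Ncl at 0.97 and Nop10 at −1.62. Of 78 mitochondrial ribosomal proteins 34 were higher (median −0.14), and of 10 RNA polymerase I genes 3 were (median −0.63). Of 13 signalling genes 7 were higher (median 0.18), and of 78 pseudogene rows 52 (median 0.24).

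**Figure D4:**
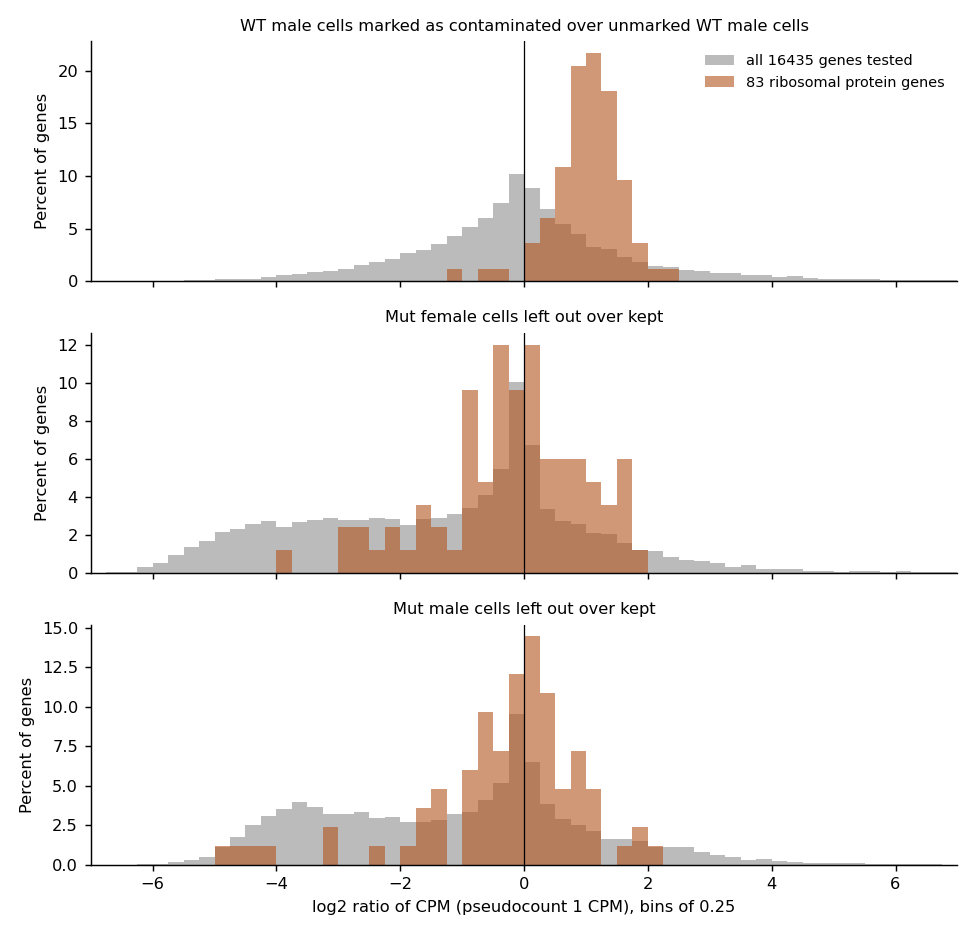
Percent of genes (y axis) by log2 ratio of CPM (x axis, bins of 0.25, drawn from −7 to 7); grey is all 16435 genes tested and orange the 83 members. In the top panel, marked over unmarked WT male cells, the members centre on 1.04 and all genes on −0.07; in the lower panels, cells left out over cells kept, the members centre on −0.04 and −0.07 and all genes on −0.87 and −0.83.

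The authors' filter left out 4 Mut female, 4 Mut male and 1 WT male cell. The ribosomal protein share of the left-out Mut female cells ran from 1.18 to 3.45% (median 3.14%), and that of the Mut male cells from 1.30 to 3.05% (median 2.69%), inside or just below the range of kept cells. The WT male cell had 2.28%. The median member ratio, left out over kept, was −0.04 in Mut females and −0.07 in Mut males, while over all genes it was −0.87 and −0.83 and over mitochondrial ribosomal proteins −2.95 and −3.19. Leaving out 1 cell at a time moved the member value between −0.14 and 0.01 in Mut females, and in Mut males from −0.47 without left-out cell 15 to 0.12 without left-out cell 9. Past 2-fold, 15 members were lower in each sex (48.3% and 47.8% of all genes), and 13 and 8 were higher (13.1% and 14.2%). Total counts of the left-out cells ran from 899625 to 6253600, where kept unmarked cells began at 2946460. The part of depth, and of the members' high level, in these differences was not tested.

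In the left-out Mut male cells the lowest members were Rps4l (−4.78), Rpl22 (−4.59) and Rpl29 (−4.28), and the highest were Rpl27a (2.19), Rpl37 (1.89) and Rpl30 (1.83). In the left-out Mut female cells the lowest were Rpl12 (−3.88) and Rpl7a (−2.96), and the highest was Rpl31 (1.79). These names were chosen after their values were seen, and the level of Rpl12 is uncertain for its shared reads. Cell 12 weighs most in the left-out Mut female sum, with 6253600 counts against 899625 to 2389160 in the others. It had 1427 genes at 10 CPM or more, and the others had 3345 to 4101. By the medians of single cells, the median member ratio was −1.001 in Mut males.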

How the data were processed

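Expected counts per gene symbol were deposited for all cells before and after a quality filter, with a normalized table of the filtered cells that is read here as TPM from its values; per the submitters' processing notes the authors used kallisto on GRCm38, while its version, the filter's criterion and why cells were marked are not given in the sources used here. The tables hold 52 (unfiltered) and 44 (filtered) columns of other samples, which stayed unused. The members and lists were chosen with earlier results of these data known.

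Cells were summed per genotype and sex and rounded after summing, giving 61543135 and 117701842 counts for WT and Mut females and 120682125 and 112199121 for WT and Mut males. The 4 sums were fitted with edgeR 4.0.16 (R 4.3.3, quasi-likelihood test, sex and genotype as terms). Genes were kept by filterByExpr with a minimum count of 10, scaled by TMM, and called at a Benjamini-Hochberg threshold of 0.05 over 16435 genes. The fit was run on simulated sums, with a required outcome only at a spread far below that of these data (common biological coefficient of variation 0.96). That check does not show which changes the fit could call here. SE is the change divided by the square root of F. Where each group is 1 sum, the log2 ratio of TMM-scaled CPM with a pseudocount of 1 CPM is given without a test, and for left-out cells CPM by library totals. CPM of single cells uses library totals. A cell carries a gene at 10 CPM or more. Exact Poisson intervals (95%) were computed for the summed counts; they cover counting error only, since the labels mention no molecular identifiers to tell molecules from PCR copies.

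Named genes were the 8 members of highest and lowest median TPM, 8 per direction of smallest genotype p and 4 of smallest sex p moving the same way in both strata, up to 6 per direction by ratio for marked cells at 25 CPM or more, the 5 of lowest and highest coefficient of variation, the paralogue pairs, the stalk proteins, Rpsa and Rps6, and of the companion lists those of highest mean CPM; some genes the rule names are not reported here, and any other name is said to be chosen later or was met as an exception. Alternatives were DESeq2 1.42.0, other scalings, no covariate, no filter, marked or left-out cells added, other pseudocounts and units, and each cell or sum left out; leaving out Mut female cells 2, 6 and 20 was chosen after seeing the data. Word sharing was computed from GENCODE M21 transcripts with words of 31 letters.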

Additional observations from a re-analysis of the deposited data

Results flagged for a closer look

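Among the 4 Mut female cells left out by the authors' filter, cell 12 carried 60 members at 10 CPM or more, below the other 3 cells by a gap larger than such small groups usually show. Chance gives such a flag in about 1 of 20 groups, and several measures and groups were searched. Rpl7l1 was the 1 member whose Mut over WT ratio passed 2-fold in opposite directions in the sexes, at a log2 ratio of −1.28 in females and 1.10 in males. That difference was not tested, each group is 1 sum, and 1 cell held 27.5 to 49.3% of each group's Rpl7l1 counts.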

How the results depend on the processing

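The count of 0 called members held for genotype and for sex under each alternative fitted (edgeR settings and DESeq2), while the count of all genes called went from 0 to 666 (genotype) and 711 (sex) with DESeq2. The median member change stayed between −0.19 and 0.12 for genotype and between −0.35 and −0.22 for sex when each sum or cell was left out. With Mut female cells 2 and 6 left out together it was −0.18 for both. Over the 4 sums left out in turn, genotype changes ran from −1.07 to −0.29 for Rpl36a, −0.87 to −0.32 for Rps10, −0.76 to −0.33 for Rpl27a, −0.57 to −0.019 for Rpl4, 0.12 to 0.67 for Rpl7, 0.017 to 0.39 for Rpl27, 0.17 to 0.44 for Rpl23, 0.35 to 0.79 for Rpl12, 0.21 to 0.54 for Rps14, 0.20 to 0.46 for Rps7, −0.49 to −0.21 for Rps15 and −0.33 to −0.20 for Rpsa. Of these, the level of Rpl12 is uncertain for its shared reads. Sex changes ran from −1.35 to −0.63 for Rpl13a, −1.17 to −0.39 for Rpl7a, 0.053 to 0.33 for Rpl8, 0.14 to 0.46 for Rps4l and 0.17 to 0.38 for Rps6. Named genotype changes that turned were Rpl13a (−1.02 to 0.21), Rps28 (−0.054 to 0.78) and Rpl3 (−0.0046 to 0.33) over the sums left out, and Rpl3 at −0.064 without Mut female cells 2 and 6. The marked cells' median ratio was 0.53 with averaged TPM. The left-out Mut male cells' median ratio was −1.001 by the medians of single cells. As deposited TPM the median shares were 7.08% and 6.68% in WT and Mut females and 6.53% and 6.17% in WT and Mut males, and at a limit of 100 CPM the median cell carried 65 members; both follow from the unit and the limit. In WT the count of members lower in males was 39 by the means of single cells. No paired analysis was possible because the labels give no replicate numbers, litters or animals shared between groups. The fit has 1 residual degree of freedom, and no animal is named, so its p-values measure only the spread between these sums. Single-cell levels near the limit of 10 CPM are limited by depth.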
